A study of Equus caballus with 19 samples.

Results

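CD2, CD28 and IL7R encode receptors on the surface of T lymphocytes, and they were measured in the whole blood of 19 young horses with a custom horse oligonucleotide microarray hybridised in 1 colour. Their probes were those that the array files tie to a RefSeq transcript of 1 of these genes. Each gene had 1 such probe (A_69_P001591 for CD2, A_69_P000606 for CD28 and A_69_P001301 for IL7R), so that the data below rest on 3 of 43384 probes and on 3 of the 799 genes named this way. The animals were prepubertal Welsh foals, 10 months old when treatment began, and blood was drawn into an RNA-stabilising tube after 12 weeks. The control group (9 horses, 6 males and 3 females, labelled impoverished) was stabled individually with short turnouts in individual paddocks. The group under environmental enrichment (EE; 10 horses, 4 males and 6 females, labelled enriched) was moved between large straw-bedded stalls and group pasture and met varied feed, objects, music and odours. Each horse gave 1 array and is named below as in its label (horse477), and no blood cell counts were analysed here.

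CD2 is an adhesion and costimulation receptor of T cells and natural killer cells that binds CD58 and CD48 on other cells. CD28 is the main costimulatory receptor of T cells, which binds CD80 and CD86 on antigen-presenting cells and strengthens the signal of the T cell receptor. IL7R is the alpha chain of the receptor for interleukin 7, a cytokine on which naive and memory T cells depend to survive, and it also forms part of the receptor for thymic stromal lymphopoietin. In bulk blood RNA, fewer T cells and less of these transcripts per T cell cannot be told apart.

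The share of spots well above background lay between 61.2% and 69.6% per array, and no spot was saturated. Some markers of blood cells were detected on all 19 arrays, among them the globins HBA2 and HBB, the monocyte receptor CD14 and the neutrophil protease MMP9. Others were not: the red cell genes HBZ and SLC4A1 and the platelet gene ITGB3 were well above background on at most 1 array. The arrays lay on 5 slides, each with horses of both groups. EE samples took positions 1 and 3 of a slide and control samples positions 2 and 4, except for EE horse475 at position 2, so that position and treatment can hardly be told apart. Signals were scaled so that the 75th percentile of each array was 500, and all levels below are log2 of the scaled signal. Levels were compared between horses for each probe and not between probes, whose brightness depends on their sequence.

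The CD2 probe was well above background in all 19 horses. In the control group its level had a lowest value of 8.74, a median of 9.23 and a highest value of 9.76, with a mean of 9.28 ± 0.31 (SD, n = 9). In the EE group the lowest value was 9.03, the median 9.57 and the highest 9.83, with a mean of 9.51 ± 0.23 (SD, n = 10). The groups overlapped over most of their range: 1 control horse (horse477) lay below every EE horse, and 1 EE horse (horse648) lay above every control horse.

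CD28 gave a faint signal, between 11.7 and 29.0 scaled units against the array percentile of 500, and was well above background in 18 of 19 horses, EE horse469 being the exception. Its control levels ran from 3.62 over a median of 4.24 to 4.86 (mean 4.13 ± 0.43, SD, n = 9). Its EE levels ran from 3.55 over a median of 4.34 to 4.78 (mean 4.27 ± 0.35, SD, n = 10). The highest and the lowest horse belonged to different groups, control horse650 and EE horse469, and the remaining horses of both groups overlapped.

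IL7R was well above background in all horses and spread more than the other genes. Its control levels had a lowest value of 6.98, a median of 7.23 and a highest value of 8.51 (mean 7.49 ± 0.50, SD, n = 9), and its EE levels a lowest value of 6.38, a median of 7.53 and a highest value of 7.78 (mean 7.37 ± 0.46, SD, n = 10). The EE group had the higher median and the control group the higher mean. Control animals horse650 (8.51) and horse472 (8.02) lay above every EE horse, and EE animals horse643 (6.38) and horse469 (6.91) below every control horse. From the lowest to the highest of the 19 horses the scaled signal differed 2.13-fold for CD2 and 4.37-fold for IL7R. Over the 18 horses with CD28 well above background it differed 2.36-fold for CD28, from control horse476 to control horse650.

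**Figure D1:**
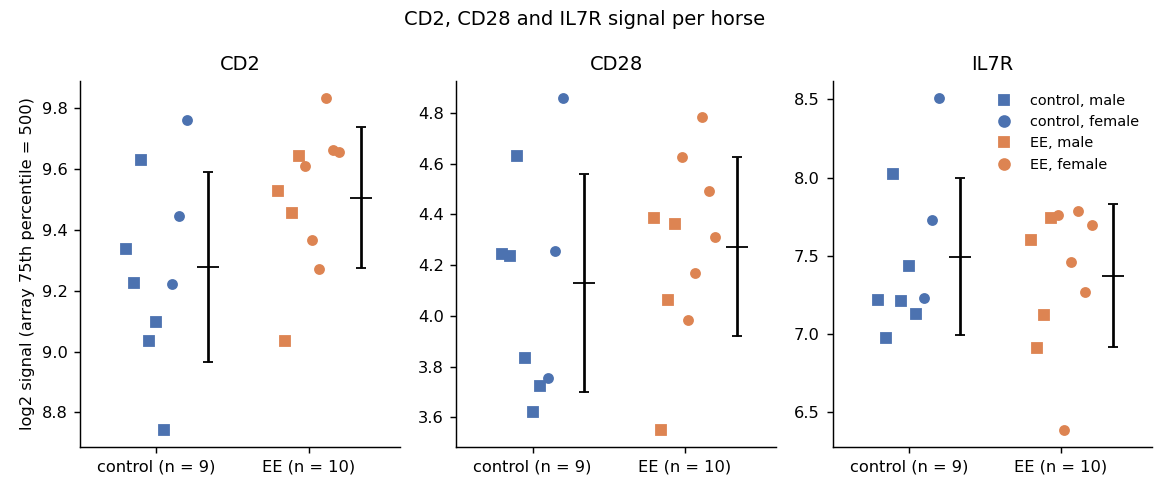
Log2 signal of CD2, CD28 and IL7R (each panel with its own y axis) in 9 control and 10 EE horses. Points are horses, squares males and circles females, and the black marks give mean and SD. The groups overlap for each gene, and the control horse at 8.51 and the EE horse at 6.38 stand at the ends of the IL7R panel.

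The first question was whether 12 weeks of EE went with another level of these transcripts. None of the 3 probes passed the test: the difference EE minus control was 0.23 for CD2, 0.14 for CD28 and -0.12 for IL7R on the log2 scale. Over all probes, limma with Benjamini-Hochberg adjustment called 0 of 43384 (0%) at an adjusted p under 0.05, while 11.7% had an unadjusted p under 0.05 (7.44% with the higher mean in EE). The study's wider criterion, an unadjusted p under 0.005 with a difference of at least 20%, was met by 1.82% of the probes and its stricter one, an unadjusted p under 0.001 with the same difference, by 0.447%. None of the 3 genes met any of these limits (0 of 3 at each).

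For CD2 the difference of 0.23 (SE 0.13) had a 95% interval from -0.040 to 0.50, with p = 0.0906 and an adjusted p = 0.493 (limma). CD2 was higher than the control mean in 8 of 10 EE horses. The median difference over all probes was 0.064, with 60.3% of the probes higher in EE. Quantile normalization, which moved that median to -0.0019, left CD2 at 0.24. Among the 25690 probes well above background throughout the control or the EE group, the median was 0.0046 and 50.9% were higher in EE. With sex in the fit the difference was 0.17 for CD2, 0.071 for CD28 and -0.19 for IL7R. Within the 5 slides the CD2 difference was 0.63, -0.035, 0.33, 0.13 and 0.11, so that 4 of 5 slides had the higher mean in EE.

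For CD28 the 95% interval of the difference ran from -0.22 to 0.51 (SE 0.18, p = 0.422, adjusted p = 0.715, limma), and 7 of 10 EE horses lay above the control mean. Within slides it was 0.81, -0.049, 0.20, -0.0044 and -0.28, so that the first slide alone carried most of the positive value. For IL7R the interval ran from -0.56 to 0.32 (SE 0.21, p = 0.569, adjusted p = 0.807, limma), and 5 of 10 EE horses lay above the control mean. Leaving out either of 2 horses, 1 of each group, took the IL7R difference close to 0: it was 0.0043 without control horse650 and -0.013 without EE horse643. Its values within slides were 0.34, -0.44, -0.39, -0.22 and 0.35, with either sign.

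**Figure D2:**
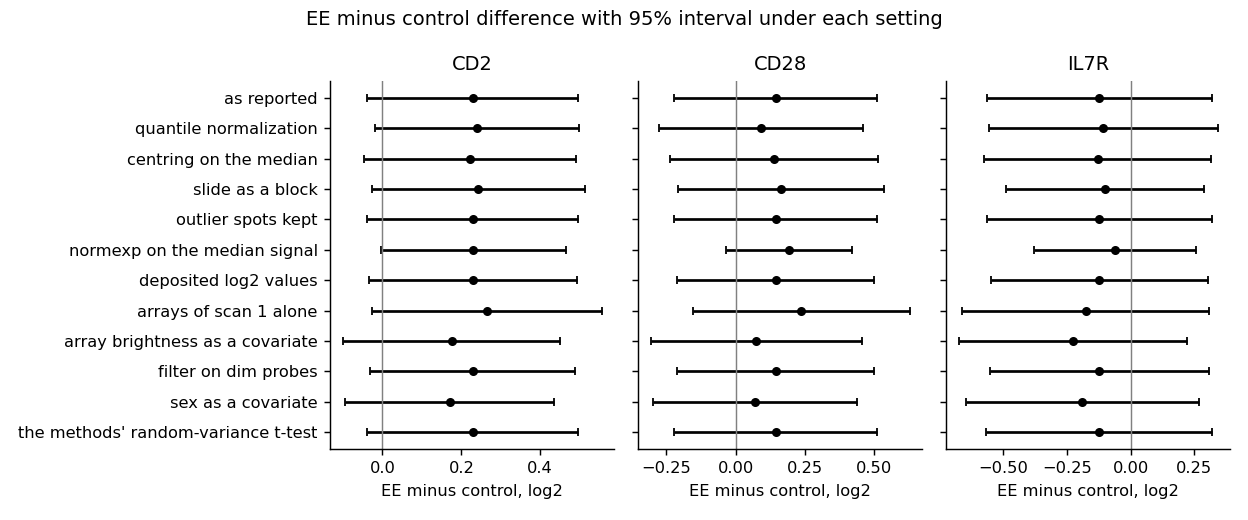
Difference EE minus control (x axis, log2) with its 95% interval for CD2, CD28 and IL7R under the reported processing (top row) and 11 other settings. CD2 and CD28 lie to the right of 0 and IL7R to the left under each of these settings, and every interval includes 0.

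Sex was unequal between the groups and was examined with treatment in the same fit. Each of the 3 genes had a lower mean in males, by amounts within the spread of the horses. The medians were 9.61 in the 9 females and 9.28 in the 10 males for CD2, 4.31 and 4.15 for CD28, and 7.70 and 7.21 for IL7R. The difference male minus female was -0.22 for CD2 (SE 0.13, p = 0.101), -0.28 for CD28 (SE 0.18, p = 0.133) and -0.25 for IL7R (SE 0.22, p = 0.263), with limma adjusted p-values from 0.837 to 0.861. Without control horse650 the sex difference was -0.17 for CD28 and -0.088 for IL7R, and with slide as a block it was -0.18 and -0.092. Over all probes 5.97% had an unadjusted p under 0.05 in this comparison and 0.053% an adjusted one. No difference between the groups in the sex difference was detectable with these numbers: the interaction was 0.15 for CD2, -0.061 for CD28 and 0.44 for IL7R, with wide 95% intervals (-0.48 to 1.36 for IL7R) and limma adjusted p-values of 0.983, 0.992 and 0.983. None of the 3 met a limit of this test either, which 3.05% of all probes did at an unadjusted p under 0.05, 0.189% at an unadjusted p under 0.005 and 0.0254% at one under 0.001, the last 2 with a difference of at least 20%.

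The next question was whether the 3 transcripts rose and fell together from horse to horse. They did so for each pair. CD2 and CD28 had a Pearson r of 0.89 and a Spearman rho of 0.91 over the 19 horses (each p = 1e-05, the smallest that 100000 permutations can give, adjusted over the 3 pairs to 3e-05). CD28 and IL7R had r = 0.70 (permutation p = 0.00069, adjusted 0.00103) and rho = 0.80 (p = 8e-05). CD2 and IL7R had r = 0.61 (permutation p = 0.0049, adjusted 0.0049) and rho = 0.71 (p = 0.00092).

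Each pair kept a positive r in smaller sets of horses. The first check left out the 2 horses farthest from the median of the first gene of a pair. These were horses at the low end, horse477 and horse469 for CD2 and horse469 and horse476 for CD28. Control horse650, highest for CD28 and IL7R, and EE horse643, lowest for IL7R, thus stayed in. On these sets r was 0.89 for CD2 with CD28, 0.74 for CD28 with IL7R and 0.60 for CD2 with IL7R. Leaving out 1 horse at a time gave 0.87 to 0.90, 0.62 to 0.75 and 0.56 to 0.71. The last 2 pairs had their lowest r without control horse650. Within the control group alone (n = 9, exact permutation test) r was 0.89 for CD2 with CD28 (p = 0.00111), 0.76 for CD28 with IL7R (p = 0.0159) and 0.82 for CD2 with IL7R (p = 0.00526). Within the EE group (n = 10, permutation test) the same pairs had r = 0.92 (p = 0.00031), 0.73 (p = 0.0167) and 0.64 (p = 0.0467).

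Named horses show the pattern. Control horse650 ranked 2 of 19 for CD2 and 1 for CD28 and IL7R. EE horse648 ranked 1, 2 and 3 for CD2, CD28 and IL7R. At the other end EE horse469 ranked 18, 19 and 18, and control horse477 ranked 19, 17 and 15. These 4 horses came from both treatments, at both ends.

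IL7R parted from the others in single animals. EE horse643 stood in the middle for CD2 (rank 11) and lower for CD28 (rank 14) but last for IL7R. EE horse649 ranked 3 and 5 for CD2 and CD28 but 11 for IL7R, and control horse476 ranked 16 and 18 but 10 for IL7R.

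**Figure D3:**
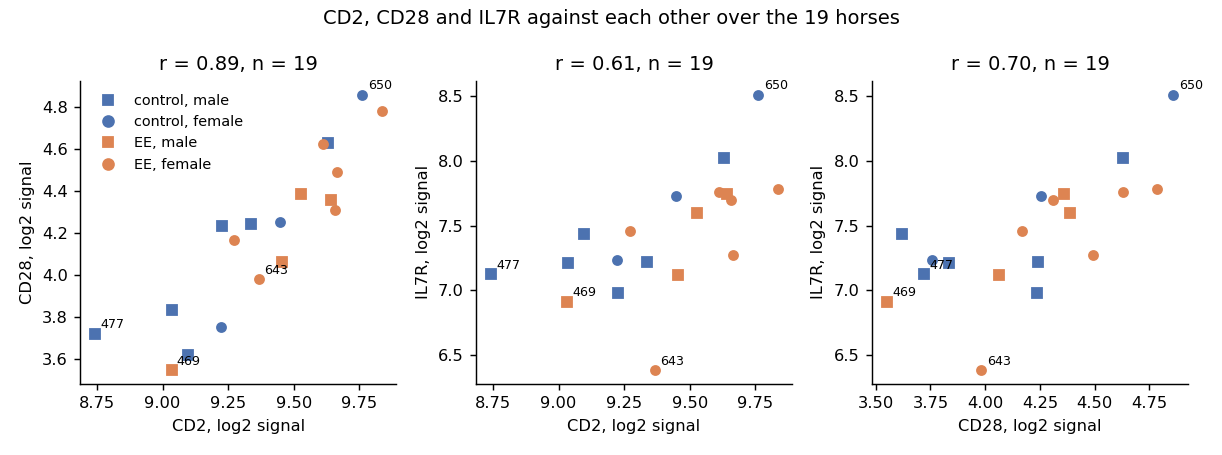
Log2 signal of each pair of genes against each other in the 19 horses, with Pearson r above each panel (0.89, 0.61 and 0.70). Squares are males and circles females, blue control and orange EE, with 4 horses numbered. CD2 and CD28 lie along 1 line through both groups, and EE horse643 falls below the others on the IL7R axis.

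Arrays share technical variation, so the pairs were set beside all other probes. The correlation of CD2 with the probes that were well above background on every array had a median of 0.027 and ran from -0.48 to 0.58 between the 5th and the 95th percentile. Of 43231 probes, CD28 had the highest r with CD2, and CD2 the highest with CD28. With 1 horse left out CD28 ranked between 1 and 5 by r with CD2 and was first in 6 of 19 rankings, and CD2 ranked between 1 and 4 by r with CD28 and was first in 3 of 19. IL7R ranked 939 by r with CD2 (373 to 1608 with 1 horse left out) and 222 by r with CD28 (90 to 535). The rank of the CD2 and CD28 pair also depended on the scaling. After quantile normalization CD28 ranked 50 by r with CD2 (r = 0.81), and after a normexp background correction with an offset of 50, which exceeds the scaled CD28 signal, it ranked 973 (r = 0.62) and CD2 ranked 22732 by r with CD28.

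The brightness of an array before scaling went with slightly lower values of the 3 genes (r = -0.41 for CD2, -0.33 for CD28 and -0.30 for IL7R, permutation test, adjusted p = 0.438 for each over the 6 relations with array measures). The 3 pairs had r = 0.87, 0.67 and 0.57 after its removal, in the order CD2 with CD28, CD28 with IL7R and CD2 with IL7R. With slide means subtracted they had r = 0.89, 0.68 and 0.60. The 75th percentile before scaling had a median of 604 in control and 502 in EE horses, with overlapping ranges (448 to 741 and 346 to 814). With brightness in the fit, EE minus control was 0.18 for CD2 (limma p = 0.197), 0.075 for CD28 and -0.22 for IL7R.

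**Figure D4:**
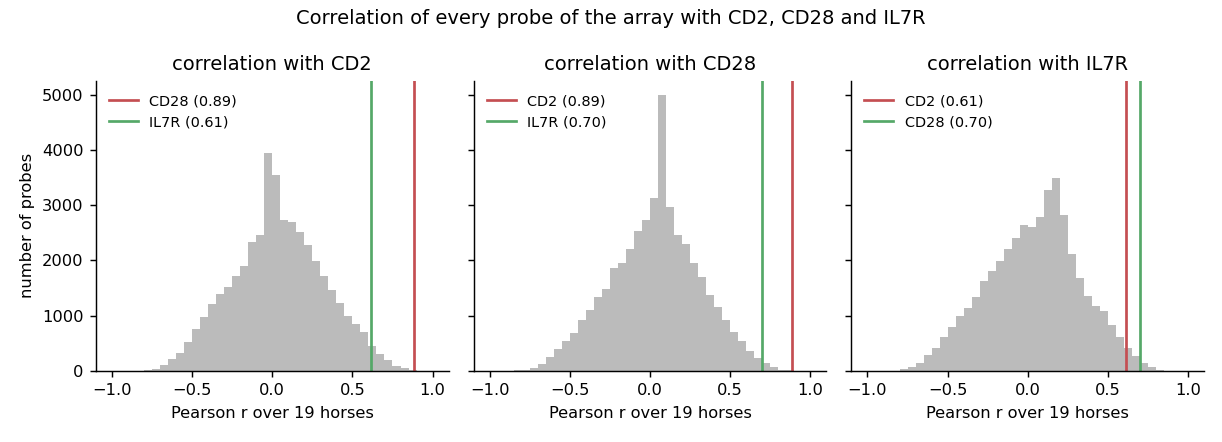
Number of probes (y axis) by their Pearson r over 19 horses (x axis) with CD2, CD28 and IL7R, as grey histograms in bins of r. Coloured lines mark the other genes of the trio. CD28 and CD2 lie at the right edge of each other's histogram (0.89), and the IL7R lines (0.61 and 0.70) lie in the right tail.

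Since the trio moved together, its members were also compared within a horse. The log2 ratio of CD2 to IL7R was higher in EE than in control horses by 0.35 and was above the control mean in 10 of 10 EE horses. It was 1.78 ± 0.30 (SD, n = 9) in control and 2.13 ± 0.36 (SD, n = 10) in EE horses, where only the shift and not the size can be read across probes. The groups overlapped. Control values ran from 1.25 (horse650) to 2.25 (horse471) and EE values from 1.81 (horse646) to 2.98 (horse643). The exact permutation test over 92378 splits gave p = 0.0285, which did not pass after adjustment over the 3 ratios (0.0855). The shift of CD28 to IL7R was 0.27 (exact p = 0.0866, adjusted 0.130) and that of CD2 to CD28 was 0.084 (exact p = 0.333, adjusted 0.333). Without control horse471 both ratios to IL7R passed, at 0.41 and 0.35 (exact p adjusted to 0.0251 for each). Leaving out any other single horse left the adjusted p of these ratios above the threshold. Both shifts were smallest without EE horse643, at 0.26 and 0.19. These comparisons were added after the values had been seen.

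Other genes were then ranked by their likeness to the trio, as Pearson r over the 19 horses with the treatment means subtracted, among 460 named genes well above background on all arrays. These values are descriptions with no test. S1PR1, the sphingosine 1-phosphate receptor through which lymphocytes leave lymph nodes, was the closest to each gene, with r = 0.79 to CD2, 0.79 to CD28, 0.82 to IL7R and 0.87 to the mean of the 3. Both of its probes were alike in this, with r from 0.74 to 0.84 across the trio.

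The brighter S1PR1 probe ran from 9.22 over a median of 9.78 to 10.4 in control horses and from 9.42 over 10.1 to 10.6 in EE horses, so that the groups overlapped, as for the trio. The S1PR1 difference EE minus control was 0.26 (SE 0.16) and 0.23 (SE 0.16) for its 2 probes, with limma adjusted p = 0.525 and 0.558. S1PR1 stayed closest to the mean of the trio in each of the 19 rankings that left out 1 horse and under each of the 4 other scalings. For CD2 alone LYRM4 took its place after quantile normalization, and for CD28 alone RPL18 did so after quantile normalization and DNASE1 after normexp, where S1PR1 ranked 58. With 1 horse left out S1PR1 was first in 16 of 19 rankings for CD2, 17 for CD28 and 19 for IL7R, and ranked 2 in the rest.

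Behind S1PR1 the genes closest to the mean of the trio were LOC100066977 (r = 0.77), RNASEH2C, a subunit of ribonuclease H2 (0.72), LYRM4, a factor of iron-sulphur cluster assembly (0.70), and the cytokine TNF (0.70). NAA11, with r = 0.69, was close to CD2. The elongation factor subunit EEF1G (0.70) and the prolyl isomerase PPIB (0.66) were close to CD28, and SZRD1 (0.71) and the Mediator subunit MED1 (0.67) to IL7R. TNF had a mean of 9.09 ± 0.58 (SD, n = 9) in control and 9.70 ± 0.28 (SD, n = 10) in EE horses. The limma fit gave this difference p = 0.00592 and an adjusted p = 0.275.

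At the opposite end GPCPD1, a glycerophosphocholine phosphodiesterase, had the lowest r with the mean of the trio (-0.77). The transcriptional repressor BHLHE40 (-0.74) and the kinase PIM1 (-0.73) followed. Against CD2 the lowest were the growth factor receptor MET (-0.75), the lactate transporter SLC16A1 (-0.74) and SERPINB1, an inhibitor of neutrophil proteases (-0.73). TLR8, a sensor of single-stranded RNA in myeloid cells, had r = -0.70 with CD28. LOC100054696 and the anti-apoptotic factor MCL1 had r = -0.75 and -0.72 with IL7R.

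**Figure D5:**
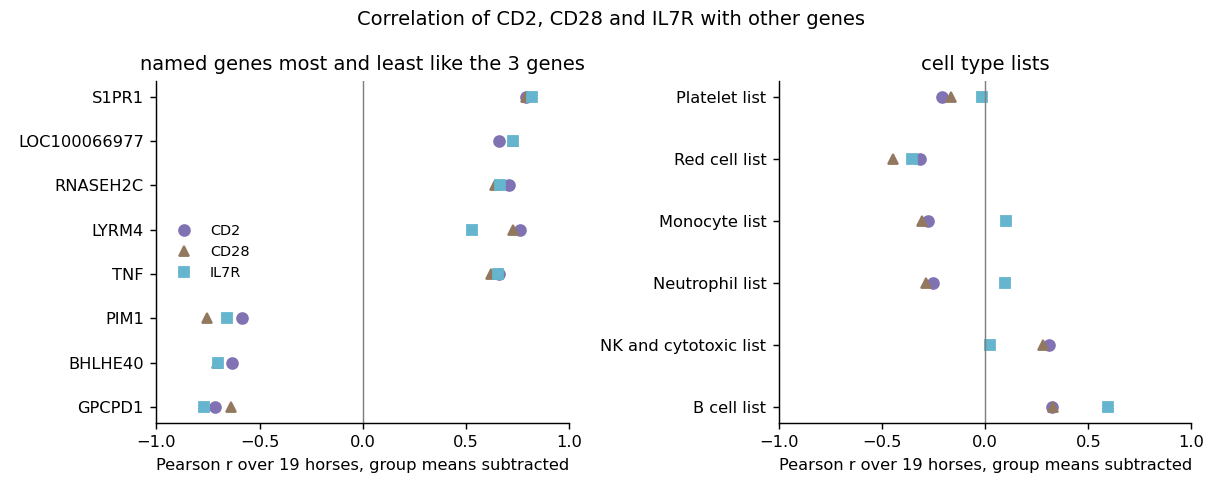
Pearson r over 19 horses with treatment means subtracted (x axes, from -1 to 1) of CD2, CD28 and IL7R with the named genes closest to and farthest from the mean of the 3 (left) and with 6 cell type lists (right). S1PR1 lies at 0.79 to 0.82 for the trio. The lists lie nearer to 0, apart from the B cell list with IL7R at 0.60, where FCER2 is positive (0.61 to 0.67 on its detected probes) and CD40 negative (-0.34 to -0.078).

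The partners of the trio were covered in part by the genes named here. Of 8 genes of CD2 binding and signalling none was named. Of 18 genes around CD28 there were IL2 and IL2RA, an induced receptor chain for interleukin 2. The 5 IL2 probes were well above background on no array, and the 5 IL2RA probes on 10 to 15 of 19. IL2RA correlated with CD2 at r = 0.41 to 0.60 with the treatment means subtracted, and its EE minus control differences ran from -0.011 to 0.18.

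Of 21 genes around the interleukin 7 receptor 6 were named (IL15, IL2, IL4, IL4R, MCL1 and TSLP) by 35 probes. The cytokine IL15 opposed the trio, with r = -0.67 to CD2, -0.61 to CD28 and -0.61 to IL7R, and so did both MCL1 probes (-0.66 and -0.76 to IL7R). In this list 2 of 35 probes had an unadjusted p under 0.05, both of IL4, higher in EE and well above background on no array, where 11.7% of all probes passed that limit, and 0 an adjusted one (limma). The median EE minus control difference was 0.18 over the named genes of that list and 0.15 over those of the CD28 list, against 0.064 over all probes. That last value was 0.14 on the deposited log2 values, 0.16 after normexp and -0.0019 after quantile normalization. Among probes well above background throughout the control or the EE group it was 0.0046. The list medians were taken under the reported processing only. Of the first list 21 of the 35 probes, and of the second 5 of the 10, were well above background on no array.

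Of 25 other T cell genes only FOXP3, the factor of regulatory T cells, was named, and it was well above background on 16 of 19 arrays. Its r was -0.063 with CD2, -0.18 with CD28 and -0.046 with IL7R, and its EE minus control difference was 0.32 (limma adjusted p = 0.610). No T cell score beyond the trio could therefore be formed.

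The genes of other blood cells were summarised as 6 list means, and none of the 18 correlations between these lists and the 3 genes passed a permutation test after adjustment. The highest was that of CD2 with B cell genes (CD40 and FCER2), with r = 0.50 (p = 0.0297, adjusted 0.535). With treatment means subtracted that value was 0.32, and IL7R with B cell genes had r = 0.60 (p = 0.00814, adjusted 0.147). The 2 genes of this list ran opposite ways on that scale. The 5 FCER2 probes above background had r from 0.31 to 0.40 with CD2 and from 0.61 to 0.67 with IL7R, and the 5 CD40 probes from -0.31 to -0.093 and from -0.34 to -0.078, so that the list values follow FCER2. The lowest of the 18 was CD28 with red cell genes (HBA2, HBB, HBZ and SLC4A1), with r = -0.41 (p = 0.0832, adjusted 0.580). Only 2 of the 8 probes of that list were well above background on all arrays. Those of HBZ and SLC4A1 were so on at most 1 array.

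CD2 and CD28 ran with the natural killer and cytotoxic list (GNLY, GZMB and KLRB1) at r = 0.26 each, and IL7R at 0.032. Within it the antimicrobial protein GNLY alone had r = 0.52 with CD2 once treatment means were subtracted, and the granzyme GZMB 0.00038 and 0.087 for its 2 probes. Neutrophil genes (LTF and MMP9) and monocyte genes (CCR2, CD14 and CD68) had r between -0.27 and -0.18 with CD2 and CD28 and of 0.078 and 0.074 with IL7R. With treatment means subtracted, r with IL7R was 0.32 for MMP9, -0.029 for LTF, 0.24 for CD68 and 0.0068 for CD14. On that scale the platelet gene SELP had r = -0.50 with CD2, -0.53 with CD28 and -0.66 with IL7R. The platelet gene ITGA2B went the other way, at 0.16, 0.20 and 0.31.

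The level of these lists overlapped between the groups. Mean-centred on the log2 scale, neutrophil genes ran from -1.25 to 1.28 in control and from -0.64 to 1.07 in EE horses, monocyte genes from -0.70 to 0.60 and from -0.45 to 0.73, and red cell genes from -1.22 to 1.23 and from -1.20 to 1.71. B cell genes ran from -0.64 to -0.045 in control and from -0.20 to 0.68 in EE horses, with 5 of 11 probes at an unadjusted p under 0.05, higher in EE, where 7.44% of all probes passed in that direction. All 5 were probes of 1 gene, FCER2 (limma adjusted p from 0.117 to 0.216), and none of the 5 CD40 probes passed. The 2 neutrophil genes went opposite ways between the groups. EE minus control was 0.59 for MMP9 (unadjusted p under 0.05, adjusted p = 0.342, limma) and -0.27 for LTF (adjusted p = 0.826). Of the 8 red cell probes 1 passed, higher in EE, a SLC4A1 probe well above background on 1 array. No monocyte, natural killer or platelet probe had an unadjusted p under 0.05. Natural killer genes ran from -0.82 to 1.07 and from -0.67 to 0.62, and platelet genes from -0.50 to 0.075 and from -0.35 to 0.46. Of the 7 platelet probes 2 (of ITGA2B and SELP) were well above background on all arrays, and the 5 of ITGB3 on at most 1. The part of the listed cell types in the levels of CD2, CD28 and IL7R was not tested.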

How the data were processed

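Whole blood RNA of 19 horses was labelled with Cy3 and hybridised to Agilent arrays, 1 per horse. The deposited files hold 1-colour intensity as processed by Feature Extraction (version 10.7.3.1 in the file headers, 9.1 in the submitters' processing notes), and a deposited table of log2 values that the authors scaled to a 75th percentile of 500, which differed by at most 0.0006 for CD2, CD28 and IL7R. Here the processed signal without control and outlier spots was scaled in the same way and log2 transformed. Probes were named through RefSeq accessions and a RefSeq gene table, which named 1781 of 3275 such probes (54.4%). Probes of these genes under other names were not used here.

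All 43384 probes were fitted with limma 3.58.1 (R 4.3.3, lmFit and eBayes) with Benjamini-Hochberg adjustment over all probes, treatment alone in the main comparison, as in the methods. Correlations used two-sided permutation tests (100000 resamples, exact within 9 horses, SciPy 1.17.1). Genes named for likeness were the 5 with the highest and 3 with the lowest r to CD2, CD28, IL7R or their mean. Genes and lists were chosen with earlier results of these data known. On simulated data limma recovered 72% of 200 probes changed by 1 on the log2 scale in EE against control, with 7 false calls. Probes were simulated independently, and the change exceeded any difference of the trio, so this recovery does not apply to CD2, CD28 or IL7R. Precision is limited by how many arrays there were. The p-values set each result against the variation between horses, which with 1 array per horse includes that between arrays.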

Additional observations from a re-analysis of the deposited data

Results flagged for a closer look

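None of the 6 sets of values of CD2, CD28 and IL7R (3 genes in 2 groups) held a horse that stood apart from the rest of its group by Dixon's criterion. Among the 56 sets of values examined, the other listed genes included, 3 did so, where chance gives about 1 in 20. ITGA2B, the platelet integrin, was at 9.04 in control horse650 against 7.62 to 8.31 in the other control horses (gap 0.513 of the range), and this horse also had the highest CD28 and IL7R. IL4R, the interleukin 4 receptor, was at 14.7 in EE horse469 against 13.9 to 14.3 in the other EE horses (gap 0.572), and this horse had the lowest CD28. CD68, a macrophage marker, was at 9.19 in EE horse646 against 7.61 to 8.34 (gap 0.535), and this horse ranked 13, 12 and 9 for CD2, CD28 and IL7R.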

How the results depend on the processing

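The 3 correlations within the trio kept their sign in each of the 14 other settings and with each horse left out. Their adjusted p also stayed under the threshold each time. After normexp, though, CD2 ranked 22732 and IL7R 23138 of 43208 probes by r with CD28. A low p in that setting therefore does not set the CD28 pairs apart from other probes. Across 11 other settings the EE minus control difference kept its sign (0.17 to 0.26 for CD2, 0.071 to 0.24 for CD28, -0.22 to -0.061 for IL7R), with no gene called and none meeting the study's stricter criterion. Leaving out 1 horse gave 0.16 to 0.29 for CD2 (unadjusted p = 0.0305 without control horse650, limma), 0.081 to 0.24 for CD28 and -0.19 to 0.0043 for IL7R, the last without control horse650. The same range for male minus female was -0.26 to -0.15 for CD2, -0.38 to -0.17 for CD28 and -0.37 to -0.088 for IL7R. With slide as a block the sex by treatment interaction turned to -0.20 for CD2 and -0.23 for IL7R and moved from -0.061 to -0.68 for CD28, and after normexp the correlation of CD28 with red cell genes turned to 0.15. The cause of these shifts was not tested. The shift of the CD2 to IL7R ratio was 0.29 after normexp (exact adjusted p = 0.0352). Averaging probes or taking the brightest could change nothing for the trio, since each gene had 1 probe. No paired analysis was possible because each horse entered a single group. The faint CD28 signal limits the precision of its values.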
